A study of Mus musculus with 24 samples.

Results

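The genes described here are 40 genes of the endoplasmic reticulum (ER) and the early secretory pathway, listed by name: 11 chaperones and co-chaperones, 5 disulfide enzymes, 9 subunits of the translocation, translocon-associated and signal peptidase complexes, 7 degradation genes, 3 export genes and 5 stress regulators. Liver mRNA was sequenced from 24 mice, with 3 males and 3 females in each of 4 groups. GHR+/+ mice carried an intact growth hormone receptor gene, GHR-/- (Laron) mice lacked a functional receptor in every tissue, and both were uninjected and killed at 21 weeks of age. AAV-HLP-Luc and AAV-HLP-mGHR mice were GHR-/- mice that had received 40000000000 vector genomes of AAV8 carrying luciferase or the mouse receptor, and were killed at 30 to 31 weeks. The liver-specific HLP promoter limits both transgenes to the liver, so the other tissues of these mice stayed without the receptor. Wherever injected mice are set against uninjected ones, age and injection cannot be told apart. Counts per mouse were in hand for 1999 abundant genes of the 56748 counted, and 25 of the 40 genes were among them. The other 15 (Dnajb9, Sdf2l1, Creld2, Manf, Ero1b, Sec61b, Sec61g, Ssr2, Ssr4, Spcs1, Syvn1, Derl3, Sec23b, Atf4 and Ddit3) are described by the side of the deposited gene rankings on which they stood.

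The ER is where secreted and membrane proteins enter the export route. A nascent chain passes through the Sec61 channel, signal peptidase trims it, chaperones of the Hsp70, Hsp90 and lectin families and protein disulfide isomerases fold it, COPII coats carry the folded product to the Golgi, and chains that fail are extracted and degraded. Hepatocytes make most plasma proteins and depend on this machinery. The unfolded protein response adjusts it through IRE1 and its target Xbp1, through Atf6, and through PERK with Atf4 and Ddit3 (CHOP). Creb3l3 (CREBH) is a liver-enriched membrane-bound relative of Atf6.

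Counts summed over the genes in hand ranged from 26453904 to 38194053 per mouse, and normalized counts are counts divided by a size factor per mouse. Ghr was at 18665 to 27559 normalized counts in GHR+/+, 2052 to 2654 in GHR-/-, 1416 to 3257 in AAV-HLP-Luc and 2615 to 4968 in AAV-HLP-mGHR mice. Reads were summed over the whole gene, so residual transcript of the disrupted allele is counted too. Igf1, the main receptor target in liver, was at 17829 to 27995 in GHR+/+ mice, 278 to 2242 in GHR-/- mice, 234 to 1194 in AAV-HLP-Luc mice and 5216 to 17075 in AAV-HLP-mGHR mice. All 9 hepatocyte markers listed were in the count table, and their sum ranged from 4061359 to 6532429 normalized counts over the 24 mice. The count table in hand held 2 of 5 Kupffer cell markers, 1 of 4 stellate cell markers (Dcn), 1 of 5 erythroid markers (Hbb-bs), and no cholangiocyte, endothelial, plasma cell, B cell or pancreatic acinar marker. Between GHR+/+ and GHR-/- mice, Hbb-bs was at 1827 to 3142 (median 2408) and 2765 to 4377 (median 3573) normalized counts, and Dcn at 2958 to 7479 (median 4721) and 4157 to 9146 (median 6879). Their part in the results was not tested. In whole liver, fewer cells of a type and less RNA per cell cannot be told apart. The AAV-HLP-Luc male 005 stood apart from every other mouse in the genes described here, and it was extreme in many other genes too. The comparisons of AAV-HLP-Luc mice by counts are given with and without it. The deposited enrichment tables that use AAV-HLP-Luc males include it and could not be given without it.

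The 250 bases before the start of each gene's Ensembl canonical transcript were read from the GRCm39 genome, with starts from GENCODE M39. For some genes, Lman1, Sec23b and Spcs2 among them, that start lies inside the annotated gene, downstream of its outermost start. Hyou1, Hspa5 and Hsp90b1 are also among them. Both Hyou1 elements printed below, the Hspa5 element and the plus-strand copy of Hsp90b1 lie inside the annotated gene. The ER stress element, CCAAT and CCACG with 9 bases between them, is the letter pattern known for Atf6 and Xbp1 binding together with NF-Y. It was present on either strand in 10 of the 40 promoters (Hspa5, Hsp90b1, Calr, Canx, Dnajc3, Creld2, Pdia6, Ero1b, Syvn1 and Derl3), and in 0.115% of all 21770 promoters searched. ER stress element II, ATTGG and CCACG with 1 base between them, was in 3 of the 40 (Hyou1, Manf and Herpud1) and in 0.0551% of all promoters. The elements of the 8 genes that also had counts are printed. They are written 5′ to 3′ on the strand that carries the pattern, with both parts of the pattern in capitals and up to 5 flanking bases in lower case.
Hspa5 (chr2:34662032-34662060, plus strand): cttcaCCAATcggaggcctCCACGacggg
Hsp90b1 (chr10:86541497-86541525, minus strand): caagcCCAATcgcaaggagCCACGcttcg
Hsp90b1, the other copy (chr10:86541392-86541420, plus strand): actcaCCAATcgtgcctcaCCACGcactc
Calr (chr8:85573699-85573727, plus strand): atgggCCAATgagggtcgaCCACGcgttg
Canx (chr11:50216622-50216650, minus strand): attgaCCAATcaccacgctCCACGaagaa
Dnajc3 (chr14:119175234-119175262, plus strand): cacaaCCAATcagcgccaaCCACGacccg
Pdia6 (chr12:17316487-17316515, plus strand): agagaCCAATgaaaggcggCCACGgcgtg
Hyou1 (chr9:44290656-44290676, minus strand): tgcggATTGGgCCACGtcacg
Hyou1, the other copy (chr9:44290757-44290772, minus strand): ATTGGtCCACGtagaa
Herpud1 (chr8:95113000-95113020, plus strand): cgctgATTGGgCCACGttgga

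The 9 bases between the parts differed from gene to gene, and in ER stress element II the single base was g or t. The single parts alone were common: CCAAT was in 28 of the 40 promoters and in 36.5% of all promoters, and CCACG in 26 of the 40 and in 30.4% of all. TGACGTGG, the pattern named UPRE for Xbp1, was found in Hyou1 alone (0.56% of all promoters), where it overlaps the CCACG of the first element printed. TGATGCAA, an amino acid response type pattern, was in Herpud1 and Ddit3 (0.887% of all), and TGATGAAA was in none of the 40 (0.864% of all). TTCNNNGAA, the STAT5 type pattern, was in Sec61g and Sec23b (7.7% of all promoters). A match describes letters only and is no evidence that a factor binds there.

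FPKM, which divides by gene length, allows levels to be compared between genes and was in hand for 20 of the 40. P4hb, the protein disulfide isomerase that is also a subunit of prolyl hydroxylase, had the highest mean level over the 24 mice, at 504 FPKM. Calr (calreticulin, a lectin chaperone) followed at 223 FPKM, Herpud1 at 180 FPKM, Hsp90b1 (GRP94) at 161 FPKM, Pdia3 at 130 FPKM and Hspa5 (BiP) at 120 FPKM. These means pool the 4 groups and include AAV-HLP-Luc male 005, and the order differed between groups: in GHR+/+ mice the median was 185 FPKM for Hsp90b1 and 133 FPKM for Herpud1, and in GHR-/- mice 140 and 172 FPKM. The lowest mean levels of the 20 were those of Sec61a1 at 25.9, Sel1l at 18.2, Hyou1 at 13.6 and Ssr1 at 10.2 FPKM. Among the regulators, Creb3l3 stood at 83.1 and Xbp1 at 46.2 FPKM. The levels of the 25 genes in each mouse, relative to the GHR-/- mean, are drawn in the heat map.

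**Figure D1:**
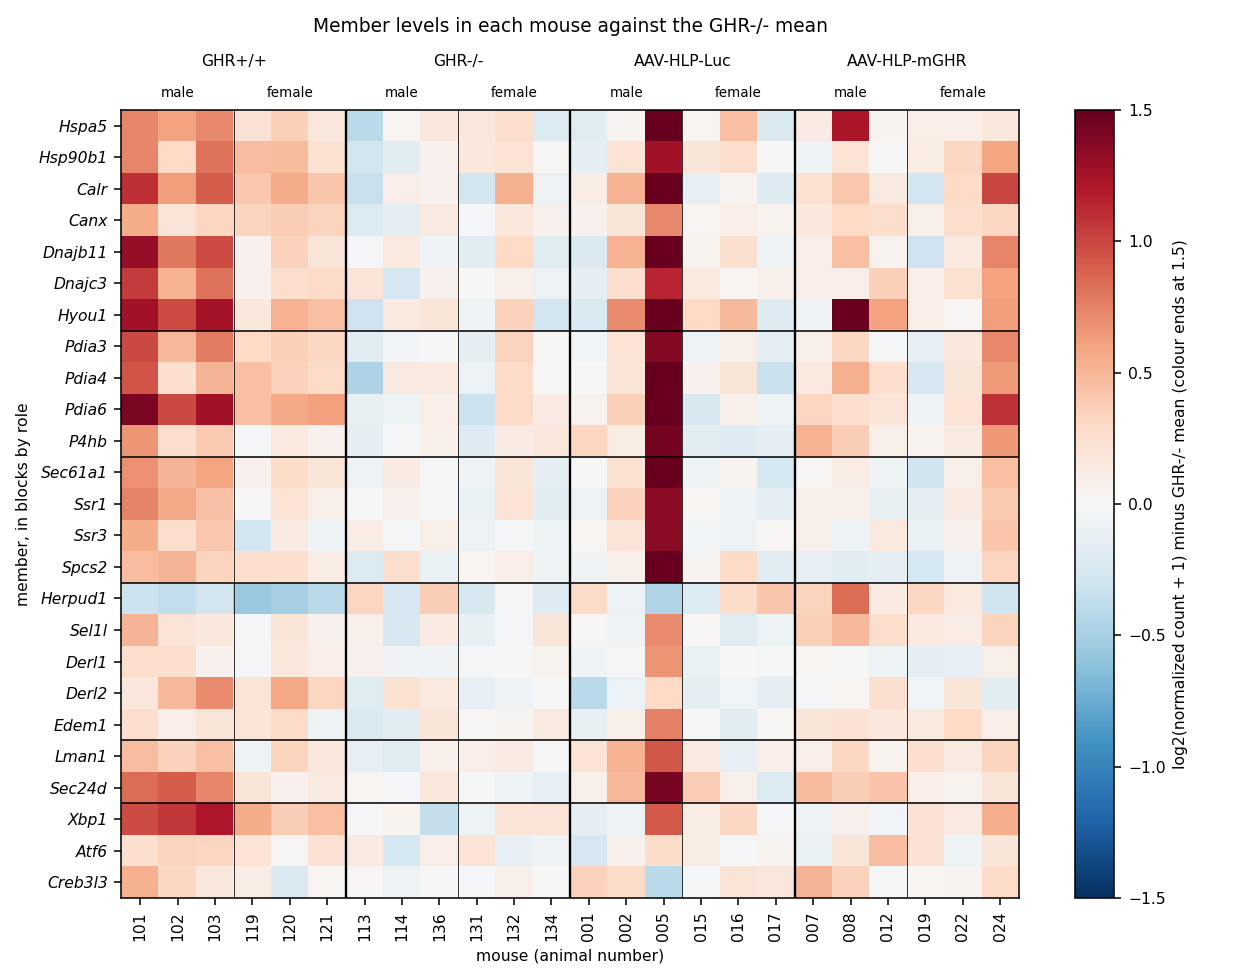
Heat map of the 25 genes with counts (rows, grouped by role) in the 24 mice (columns, grouped by genotype, treatment and sex). Colour is log2(normalized count + 1) minus the mean of the 6 GHR-/- mice for that gene; the GHR+/+ males and the AAV-HLP-Luc male 005 show the most positive colours, AAV-HLP-mGHR male 008 is high for Hspa5, Hyou1 and Herpud1, and Herpud1 is below 0 in all 6 GHR+/+ mice.

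The comparison of GHR+/+ with GHR-/- mice asks what the lack of the receptor does at matched age. Most of the folding machinery was higher in the GHR+/+ livers: 14 of the 25 genes were called higher and 1, Herpud1, lower, against 11.9% of all genes in hand called higher and 12.7% called lower. A call means an adjusted p under 0.05 in limma over all 1999 genes. The median log2 fold change of the 25 was 0.39, against 0.01 for all genes, and 24 of the 25 lay above 0. The 6 mice of one group lay wholly above the 6 of the other for Hsp90b1, Canx, Pdia6 and Xbp1, and wholly below for Herpud1; such separation was found for 6.7% of all genes in the higher direction and 7.05% in the lower.

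All 7 chaperones with counts were called higher in GHR+/+ mice, although 3 of the calls depended on single mice: Dnajb11 was called in 4 of the 12 fits that left out 1 mouse, and Hspa5 and Dnajc3 in 7 of the 12 each. Hspa5, the ER Hsp70 that holds unfolded chains and restrains the stress sensors, ran from 16660 through a median of 20763 to 24568 normalized counts in GHR+/+ mice and from 11211 through 15800 to 17796 in GHR-/- mice. The 2 lowest GHR+/+ females lay within the GHR-/- range, and the difference was 0.47 ± 0.14 on the log2 scale (± standard error throughout, adjusted p = 0.0284). Hsp90b1, the ER Hsp90, ran from 23294 through 27549 to 34938 in GHR+/+ and from 16387 through 20511 to 22934 in GHR-/- mice. The groups did not overlap, and the log2 fold change was 0.50 ± 0.12 (adjusted p = 0.00971). Calr ran from 23866 through 27143 to 38712 in GHR+/+ and from 14334 through 17879 to 26147 in GHR-/- mice. Only the GHR-/- female 132 reached into the GHR+/+ range for Calr, and the log2 fold change was 0.67 ± 0.16 (adjusted p = 0.0104). Canx (calnexin), the membrane-bound partner of calreticulin, ran from 12440 through 13693 to 15936 in GHR+/+ and from 9438 through 10996 to 12118 in GHR-/- mice. These did not overlap either, with a smaller log2 fold change of 0.35 ± 0.08 (adjusted p = 0.00894).

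The co-chaperones and the large Hsp70 relative were more variable. Dnajb11 (ERdj3), a J protein that brings clients to BiP, ran from 2357 through 3382 to 5643 in GHR+/+ and from 1989 through 2187 to 2762 in GHR-/- mice, a log2 fold change of 0.62 ± 0.21 (adjusted p = 0.0441). The 3 GHR+/+ males, at 5643, 3910 and 4423, were all above the GHR-/- range and 2 of the 3 females were inside it. Dnajc3 (p58IPK), a J protein that also inhibits PERK, ran from 8303 through 10524 to 16395 in GHR+/+ and from 6655 through 8132 to 9059 in GHR-/- mice, a log2 fold change of 0.51 ± 0.15 (adjusted p = 0.0287). Hyou1 (GRP170), an exchange factor for BiP, ran from 2655 through 4061 to 5731 in GHR+/+ and from 1917 through 2460 to 3021 in GHR-/- mice. 1 GHR+/+ female fell inside the GHR-/- range, and the log2 fold change was 0.79 ± 0.20 (adjusted p = 0.0143).

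Of the 4 disulfide enzymes, 3 were called higher. Pdia6, an oxidoreductase that also binds the stress sensor IRE1, had the largest difference of the 25 genes. It ran from 7773 through 10006 to 15156 in GHR+/+ and from 4556 through 5748 to 6950 in GHR-/- mice, with no overlap and a log2 fold change of 0.89 ± 0.17 (adjusted p = 0.00356). Pdia3 (ERp57), which works on glycoproteins with calreticulin and calnexin, ran from 15336 through 16813 to 24739 in GHR+/+ and from 11164 through 12291 to 15701 in GHR-/- mice (log2 fold change 0.54 ± 0.13, adjusted p = 0.0104). Pdia4 (ERp72) ran from 5947 through 6615 to 9635 in GHR+/+ and from 3623 through 5231 to 6123 in GHR-/- mice (log2 fold change 0.46 ± 0.14, adjusted p = 0.0299). For both, the GHR-/- female 132 alone reached the GHR+/+ range. Pdia4 was called in 8 of the 12 fits that left out 1 mouse. P4hb, the most abundant of the 20 genes with FPKM, was at 44774 to 72033 and 39947 to 51476, and its difference of 0.26 ± 0.12 did not pass (adjusted p = 0.127).

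Among the translocation genes, 2 of 4 passed. Sec61a1, the channel-forming subunit, ran from 5837 through 7332 to 8978 in GHR+/+ and from 5036 through 5408 to 6299 in GHR-/- mice (log2 fold change 0.39 ± 0.11, adjusted p = 0.0227). Spcs2, a signal peptidase subunit, ran from 2459 through 2804 to 3256 in GHR+/+ and from 1972 through 2247 to 2725 in GHR-/- mice (log2 fold change 0.32 ± 0.09, adjusted p = 0.0218). Of the 12 fits that left out 1 mouse, Sec61a1 was called in 10 and Spcs2 in 11. The translocon-associated subunits Ssr1 (0.35 ± 0.12, adjusted p = 0.0607) and Ssr3 (0.17 ± 0.13, adjusted p = 0.337) did not pass. The export genes did not pass in the pooled sexes: Lman1 (ERGIC-53), a cargo lectin, was at 0.28 ± 0.10 (adjusted p = 0.053), and Sec24d, a cargo-binding COPII subunit, at 0.43 ± 0.17 (adjusted p = 0.0872).

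The degradation genes were split. Herpud1, a stress-induced membrane protein of the degradation complex, ran from 10558 through 11869 to 12790 in GHR+/+ mice and from 13080 through 14530 to 20011 in GHR-/- mice. Every GHR+/+ mouse was below every GHR-/- mouse, and the log2 fold change was -0.40 ± 0.12 (adjusted p = 0.0265). Herpud1 was called in 10 of the 12 fits that left out 1 mouse. Derl2, a derlin that helps move chains out of the ER, went the other way, from 3497 through 4134 to 5075 in GHR+/+ and from 2730 through 3038 to 3630 in GHR-/- mice (log2 fold change 0.41 ± 0.11, adjusted p = 0.0144). Sel1l, the adaptor of the Hrd1 ligase, Derl1 and Edem1, a lectin that selects misfolded glycoproteins, had log2 fold changes of 0.19, 0.14 and 0.16 and did not pass.

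Among the regulators, Xbp1 passed and had the third largest difference of the 25. It ran from 5766 through 7712 to 10382 normalized counts in GHR+/+ mice and from 3500 through 4551 to 5139 in GHR-/- mice, with no overlap and a log2 fold change of 0.78 ± 0.16 (adjusted p = 0.00467). Counts per gene do not separate its spliced from its unspliced mRNA. Atf6 (0.22 ± 0.09, adjusted p = 0.08) and Creb3l3 (0.16, adjusted p = 0.283) did not pass.

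**Figure D2:**
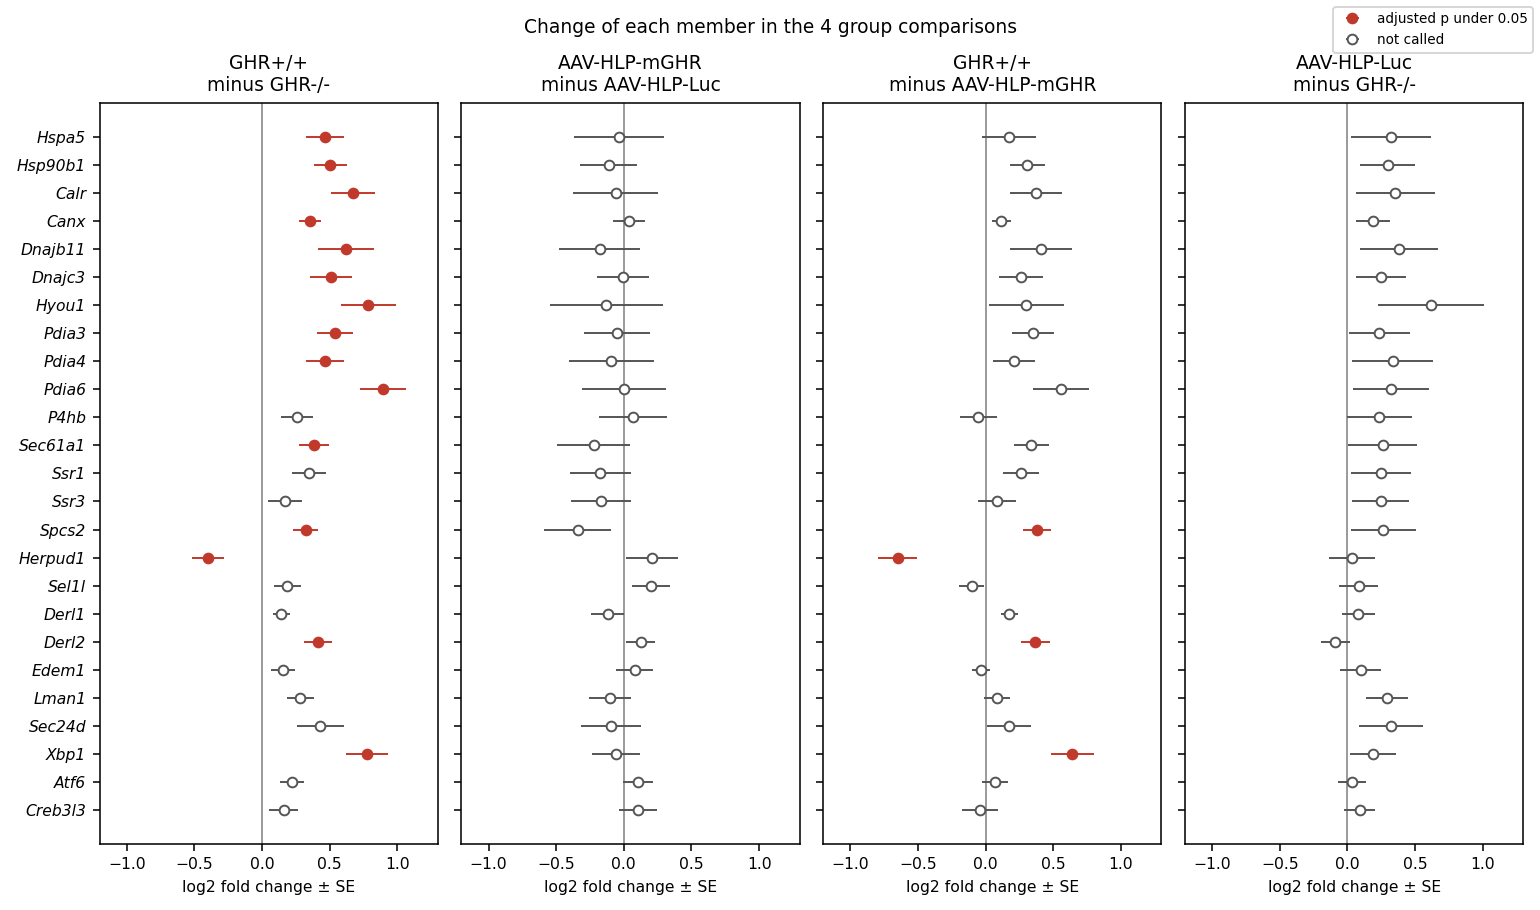
Log2 fold changes (x axis) of the 25 genes with counts (y axis, grouped by role) in the 4 pooled comparisons, with bars of 1 standard error and filled points for an adjusted p under 0.05 in limma. In GHR+/+ against GHR-/- all points but Herpud1 lie above 0, and 15 are filled, and no point is filled in the comparison of the 2 vectors.

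Genes with and without an ER stress element were called in both sets. Of the 8 genes with counts and either element, 7 were called higher and Herpud1 lower, with a median log2 fold change of 0.51, against 11.9% of all genes called higher and 12.7% lower. Hyou1 and Herpud1 are among the 8 only through ER stress element II, which was chosen after seeing the data. Of the 17 without one, 7 were called higher and none lower, with a median of 0.32. The 2 sets also differ in role: apart from Pdia6 and Herpud1, the genes with an element are chaperones. The 7 chaperones, with Dnajb11 that has no element, had a median of 0.51 and were all called higher. The parts of role and element were not tested. Xbp1, Pdia3, Pdia4, Dnajb11, Sec61a1, Spcs2 and Derl2 were called higher without a match in the 250 bases. The promoter letters of Pdia6, which had the largest difference, are given for the 150 bases before that transcript's start with the element in capitals.
Pdia6 (chr12:17316383-17316532, plus strand): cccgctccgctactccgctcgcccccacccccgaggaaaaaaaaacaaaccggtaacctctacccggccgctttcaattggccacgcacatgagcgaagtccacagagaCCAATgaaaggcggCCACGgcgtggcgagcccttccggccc

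The comparison of GHR+/+ with GHR-/- mice was then made within each sex. In males, 19 of the 25 were called higher and Herpud1 lower (14.3% and 14.4% of all genes), with a median log2 fold change of 0.56. All 7 chaperones, all 4 disulfide enzymes, all 4 translocation genes and both export genes were among the 19, together with Xbp1 and Creb3l3. When each mouse of either sex was left out in turn, Xbp1 was called in 12 of 12 fits and Herpud1 in 7 of 12. Creb3l3 and Ssr3 were each called in 3 of 12, Canx and Pdia4 in 9 of 12, and P4hb and Spcs2 in 10 of 12. The fits that left out a female kept all 3 males of each group. Sel1l, Derl1, Derl2, Edem1 and Atf6 did not pass. Xbp1 was at 8848, 9323 and 10382 normalized counts in the 3 GHR+/+ males and at 4439, 4663 and 3500 in the 3 GHR-/- males. The lowest GHR+/+ male was well above the highest GHR-/- male, and the log2 fold change was 1.19 ± 0.13 (adjusted p = 0.000133). Pdia6 was at 15156, 11302 and 13599 in the GHR+/+ males and at 5248, 5419 and 6077 in the GHR-/- males, a log2 fold change of 1.25 ± 0.16 (adjusted p = 0.000317). Hyou1 was at 5731, 4702 and 5648 against 1917, 2637 and 2707, a log2 fold change of 1.16 ± 0.18 (adjusted p = 0.00107). Sec24d, not called with the sexes pooled, was at 3005, 3160 and 2811 in GHR+/+ males and at 1718, 1657 and 1896 in GHR-/- males. That is a log2 fold change of 0.77 ± 0.10 (adjusted p = 0.000531).

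In females the same comparison called none of the 25, against 4.1% of all genes in either direction. At an unadjusted p under 0.05 there were 6 of the 25, against 20.6% of all genes. The median log2 fold change was 0.20 and 22 of the 25 lay above 0. Pdia6 came nearest, at 7773, 8403 and 8709 in GHR+/+ females and 4556, 6950 and 6187 in GHR-/- females (log2 fold change 0.51 ± 0.16, adjusted p = 0.09). Xbp1 was at 6576, 5766 and 6120 against 4241, 5139 and 5109, also without overlap (0.35 ± 0.13, adjusted p = 0.146). Sec24d was at 1906, 1764 and 1854 in GHR+/+ females and 1690, 1629 and 1548 in GHR-/- females (0.20 ± 0.11, adjusted p = 0.32).

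The difference between the sexes in this effect was tested as an interaction term, and none of the 25 passed (0.9% of all genes did). At an unadjusted p under 0.05 there were 15 of the 25, against 13.1% of all genes, and 23 of the 25 interaction terms were above 0. Xbp1 had the largest interaction, 0.84 ± 0.18 on the log2 scale (adjusted p = 0.0582), and passed in 2 of the alternative fits listed at the end.

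Within GHR+/+ mice, the fitted log2 difference of males over females was above 0 in all 25 genes. It ran from 0.01 through a median of 0.37 to 0.83. The sexes overlapped for some genes, such as Canx at 15936, 12440 and 13576 normalized counts in males and 13701, 13946 and 13684 in females. Of the 25, 8 were called higher in males (7.25% of all genes) and in 18 every male was above every female (20.2% of all genes). The 8 were Sec24d (0.69 ± 0.08, adjusted p = 0.00814), Xbp1 (0.63 ± 0.09, 0.0137), Hyou1 (0.78 ± 0.13, 0.018), Dnajb11 (0.83 ± 0.15, 0.0225), Pdia6 (0.67 ± 0.12, 0.0228), Sec61a1 (0.42 ± 0.09, 0.0337), Hspa5 (0.44 ± 0.09, 0.0341) and Ssr1 (0.48 ± 0.10, 0.0346). Dnajb11 was at 5643, 3910 and 4423 normalized counts in GHR+/+ males and at 2357, 2855 and 2556 in GHR+/+ females. Sec61a1 was at 8978, 7911 and 8357 in males and at 5837, 6753 and 6287 in females. Ssr1, whose product helps some signal sequences enter the channel, was at 5770, 5099 and 4685 in males and at 3441, 3989 and 3653 in females. For each of these genes the sexes did not overlap. The called genes changed with the mice used: without GHR+/+ male 102 none of the 8 was called, and without any other single GHR+/+ mouse 2 to 5 were. Hspa5, Sec61a1 and Ssr1 were called in 0 of these 6 fits, Dnajb11 and Pdia6 in 1 of 6. The shares of all genes called in these fits are not given, so a loss of calls over all genes cannot be told apart. The hepatocyte marker sum was lower in GHR+/+ males (4061359 to 4661090 normalized counts) than in GHR+/+ females (5375168 to 5848339), with GHR-/- males at 4651474 to 5512511, and its part in this result was not tested.

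No sex difference was called in the groups without the intact gene. In GHR-/- mice none of the 25 was called (0.0501% of all genes) and none had an unadjusted p under 0.05 (8.01% of all genes), with a median of -0.04. In AAV-HLP-Luc mice none was called (0.1% of all genes) and 1 had an unadjusted p under 0.05 (14.5% of all genes), with a median of 0.48 and 22 of the 25 above 0. Without male 005 that median was 0.08, with 16 above 0. In AAV-HLP-mGHR mice none was called (0.05% of all genes) and 2 had an unadjusted p under 0.05 (16.4% of all genes), with a median of 0.02. With AAV-HLP-Luc male 005 set aside, all 3 GHR+/+ males were above the other 20 mice for Dnajb11, Sec61a1, Ssr1, Spcs2, Sec24d and Xbp1, which is 6 of the 25, against 6.5% of all genes.

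**Figure D3:**
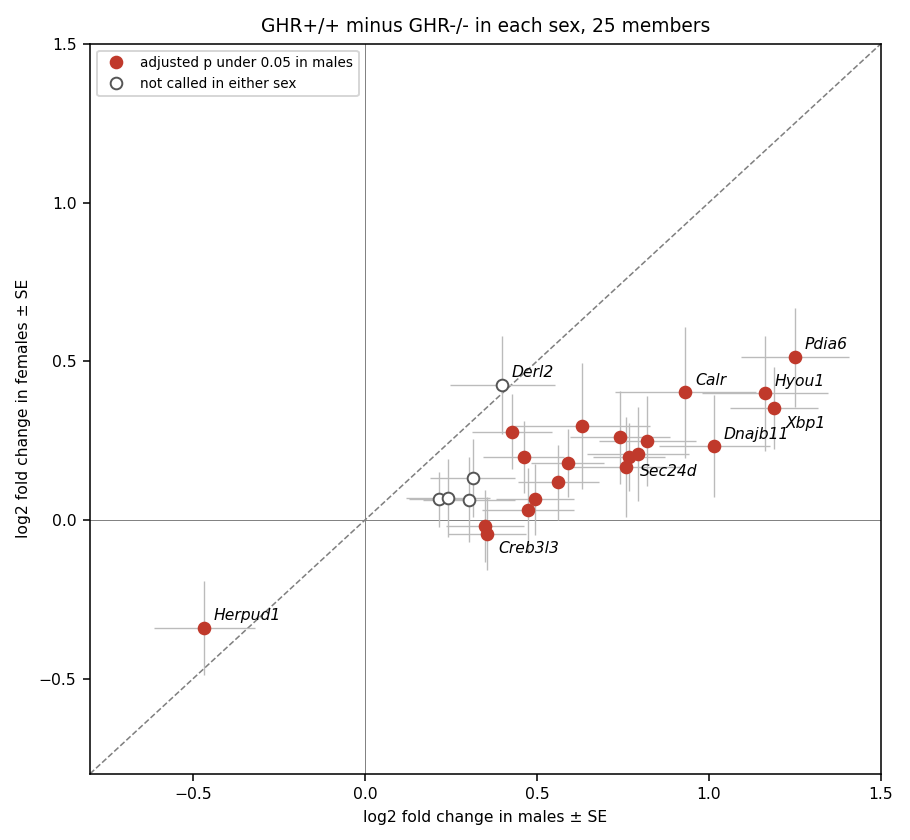
Log2 fold change of GHR+/+ over GHR-/- in males (x axis) against that in females (y axis), 1 point per gene for the 25 genes, with bars of 1 standard error, filled points for an adjusted p under 0.05 in males and a dashed line of equal change. The male values have a median of 0.56 and the female values of 0.20, and Pdia6 and Xbp1 lie farthest to the right.

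The comparison of AAV-HLP-mGHR with AAV-HLP-Luc mice asks what receptor expression restored to the liver does, at equal age and vector dose. None of the 25 genes was called, against 1.55% of all genes, and none had an unadjusted p under 0.05, against 14.8% of all genes. The median log2 fold change was -0.06 and 9 of the 25 were above 0. Pdia6 ran from 5492 through 6672 to 12029 normalized counts with the receptor vector and from 4831 through 5947 to 19220 with luciferase, and its log2 fold change was 0.00 ± 0.31. Xbp1 ran from 4253 through 4807 to 6547 and from 4064 through 4611 to 8485, a log2 fold change of -0.06 ± 0.18 (adjusted p = 0.903). Herpud1 ran from 12629 through 18229 to 27824 and from 11342 through 16660 to 20792, a log2 fold change of 0.21 ± 0.19 (adjusted p = 0.662). Standard errors reached 0.42 for Hyou1 and 0.33 for Hspa5, and AAV-HLP-Luc male 005 held the highest value of both genes.

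Without that mouse the 25 genes had a median log2 fold change of 0.15 and 24 were above 0, still with none called. AAV-HLP-mGHR female 024 was high for Pdia6 and Spcs2, and not for these alone. Its median over the 25 genes, 0.40 on the log2 scale relative to the GHR-/- mean, was the highest of its group. With 005 and female 024 both set aside, the median log2 fold change was 0.10 and 18 were above 0. In a fit that shared its spread over all libraries but 005, Sel1l alone was called (0.33), against 3.8% of all genes. In males the median log2 fold change was -0.30 and in females 0.16, with none called in either (0.8% of all genes in males and 0.8% in females). The negative sign in males rested on AAV-HLP-Luc male 005: without it the male median was 0.09, with 18 of the 25 above 0 and none called. The interaction with sex called none of the 25 and none of all genes (0%), and 1 of the 25 had an unadjusted p under 0.05 (6.4% of all genes). Its median was -0.46 with that mouse and -0.07 without it.

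**Figure D4:**
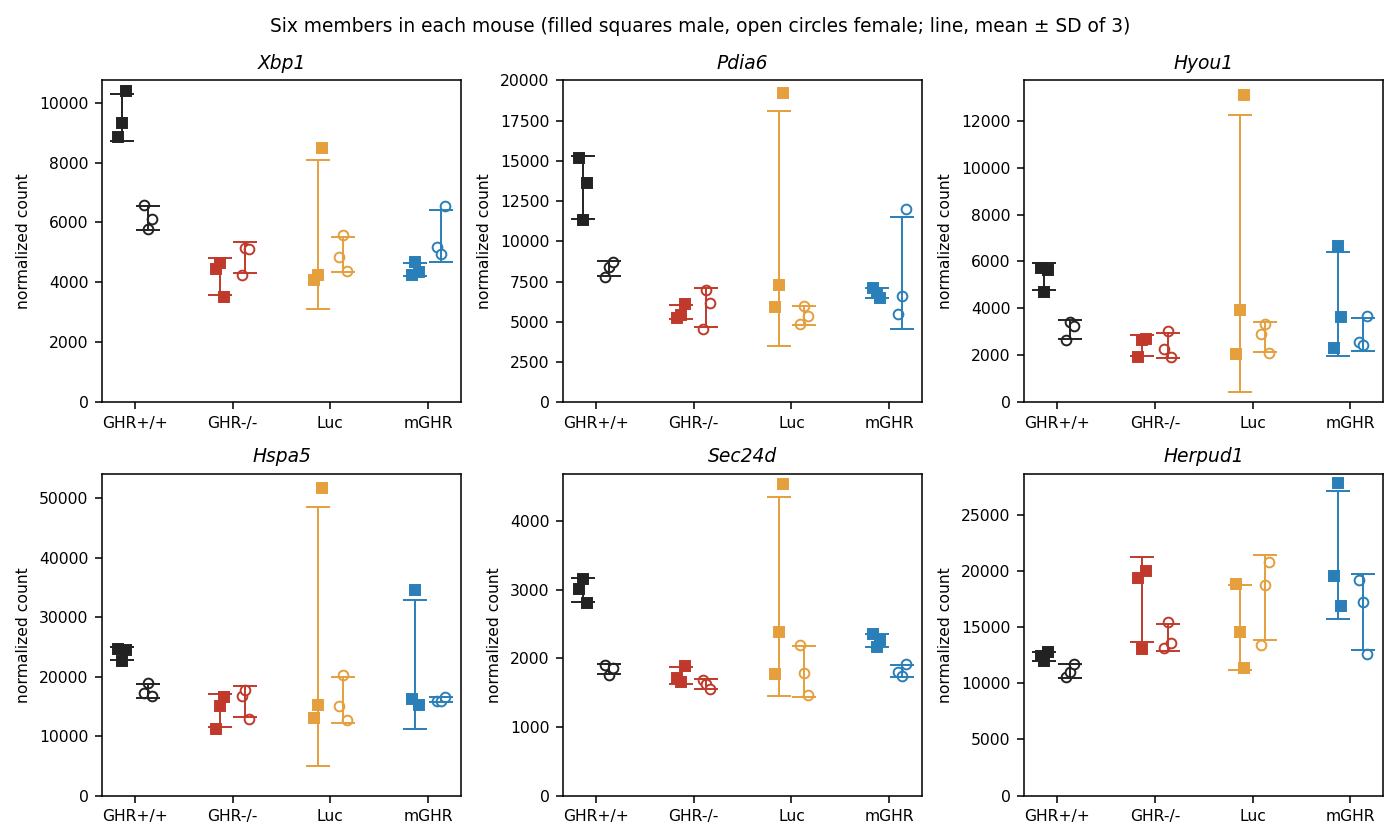
Normalized counts per mouse (y axis) of 6 genes in the 4 groups (x axis), with males as filled squares, females as open circles and lines for the mean ± SD of the 3 mice of each sex. The 3 GHR+/+ males lie above all 20 mice other than AAV-HLP-Luc male 005 for Xbp1 and Sec24d, that mouse is highest for Pdia6, Hyou1, Hspa5 and Sec24d, and 5 of 6 GHR+/+ mice lie below all AAV-HLP-mGHR mice for Herpud1.

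GHR+/+ mice were also compared with AAV-HLP-mGHR mice, which asks how far the treated livers stood from livers with the intact gene. The GHR+/+ libraries are the same as in the comparison with GHR-/- mice, so the 2 sets of values are not independent. Of the 25 genes, 3 were called higher in GHR+/+ mice (5.75% of all genes) and 1 lower (5.65% of all genes), and the median log2 fold change was 0.21. Xbp1 was at 5766 to 10382 normalized counts in GHR+/+ mice and 4253 to 6547 in AAV-HLP-mGHR mice (log2 fold change 0.64 ± 0.16, adjusted p = 0.0257). The AAV-HLP-mGHR female 024 exceeded the 2 lowest GHR+/+ values of Xbp1, and the other 5 treated mice were below all 6. Spcs2 was at 2459 to 3256 and 1897 to 2846 (0.38 ± 0.10, adjusted p = 0.033). Derl2 was at 3497 to 5075 and 2782 to 3661 (0.37 ± 0.10, adjusted p = 0.0414). Herpud1 was again lower in GHR+/+ mice, at 10558 to 12790 against 12629 to 27824 (-0.65 ± 0.14, adjusted p = 0.0154), and only the AAV-HLP-mGHR female 024 lay within the GHR+/+ range. Pdia6 had a log2 fold change of 0.56 ± 0.21 and did not pass (adjusted p = 0.099). Leaving out the AAV-HLP-mGHR female 024 raised the number called to 8 (Calr, Hsp90b1, Pdia3, Pdia6, Sec61a1, Xbp1 and Spcs2 higher, Herpud1 lower), where 16% of all genes were called in either direction. Leaving out any of 6 other mice lowered it to 1 or 2, where 5.75% to 9.2% of all genes were called. Xbp1 was called in 7 of the 12 fits without 1 mouse, and Spcs2 and Derl2 in 4 of 12 each.

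AAV-HLP-Luc and GHR-/- mice both lack the functional gene product and differ in vector, transgene and age; the GHR-/- libraries also serve the comparison with GHR+/+ mice. None of the 25 genes was called, nor was any of all genes (0%), and none of the 25 had an unadjusted p under 0.05 (3.4% of all genes). The median log2 fold change was 0.25, with 24 of the 25 above 0. Without AAV-HLP-Luc male 005 the median was 0.03, with 18 above 0.

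AAV-HLP-Luc male 005 had the highest value of all 24 mice in 20 of the 25 genes, against 16% of all genes. It had the lowest value in 1 of the 25, against 16.1% of all genes. Both shares of all genes were the largest of any mouse, followed by 12.7% and 9.45% in GHR-/- male 114. This library was thus extreme well beyond the genes described here. Hspa5 was at 51780 normalized counts in it and at 12754 to 20350 in the other 5 AAV-HLP-Luc mice, 3.43 times their median. The folds over the median of the other 5 were 4.47 for Hyou1, 3.51 for Pdia4, 3.33 for Dnajb11, 3.26 for Pdia6 and 3.23 for Calr. Over the 25 genes the median fold was 2.52, against 0.989 over all genes. Not all of the genes were raised: Herpud1 was at 0.605 and Creb3l3 at 0.663 of the median of the other 5, and both were the lowest of the group. The hepatocyte marker sum of this mouse, 4825021, was the lowest of the 6 AAV-HLP-Luc mice, and its part in these values was not tested. Relative to the GHR-/- mean, the median of the 25 genes was 1.34 on the log2 scale in this mouse, 0.50 to 0.69 in the GHR+/+ males, 0.18 to 0.29 in the GHR+/+ females and 0.05 to 0.40 in the AAV-HLP-mGHR mice.

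Other genes of the pathway were taken from a list of 124, of which 58 had counts. In GHR+/+ against GHR-/- mice 16 of the 58 were called higher and none lower (11.9% and 12.7% of all genes), with a median log2 fold change of 0.20. By role, 6 of 10 glycosylation genes, 5 of 6 further translocation genes, 1 of 4 further folding genes, 1 of 6 further degradation genes, 3 of 28 export and retrieval genes and none of 4 further regulators were called. Uggt1, the glucosyltransferase that senses misfolded glycoproteins, had the largest difference (0.61 ± 0.18, adjusted p = 0.0269), and Tram1, a protein beside the Sec61 channel, was at 0.54 ± 0.10 (adjusted p = 0.00272). In males alone 26 of the 58 were higher and none lower (14.3% and 14.4% of all genes), with Uggt1 at 1.01 ± 0.15. In GHR+/+ against AAV-HLP-mGHR mice 2 of the 58 were higher and 3 lower, no larger a share than the 5.75% and 5.65% of all genes. None of the 58 was called in either comparison of AAV-HLP-Luc mice, with AAV-HLP-mGHR or with GHR-/- mice.

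The 15 genes outside the counts are known here only by whether they stand in the leading edge of sets that scored high or low in each of the 9 deposited enrichment tables. A leading edge gives a side of a ranking, not a size or an error. Sides were not counted for all genes, so the counts of sides here have no share over all genes beside them. Genes of the same pathway share sets, so their sides are not independent of each other. For GHR+/+ against GHR-/- mice 13 of the 15 stood on the higher side, and Dnajb9 (ERdj4, a J protein that acts in degradation and restrains IRE1) and Ddit3 on the lower. The higher side held the chaperone-related Sdf2l1, Creld2 and Manf, the oxidase Ero1b, the translocation genes Sec61b, Sec61g, Ssr2, Ssr4 and Spcs1, the ligase Syvn1 (Hrd1), Derl3, Sec23b and Atf4. The table for males alone gave the same 13 and 2, and the table for females gave 12 higher, 2 lower and Sec61g in no leading edge. For males against females in GHR+/+ mice 14 stood on the higher side, Dnajb9 by 1 set only, and Ddit3 on neither. For GHR+/+ against AAV-HLP-mGHR mice the split was 13 and 2.

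The injected groups gave another split. With AAV-HLP-mGHR set against AAV-HLP-Luc mice, 2 of the 15, Ero1b and Ddit3, stood on the higher side, 10 on the lower and 3 on neither. The side of Ddit3 rested on 1 set, against 58 sets for Ero1b. Among the 10 on the lower side, Ssr4 and Spcs1 also rested on 1 set each. In males 4 were higher and 10 lower, and in females 9 were higher and 5 lower. These tables include AAV-HLP-Luc male 005 in the pooled and male comparisons. For AAV-HLP-Luc against GHR-/- mice 12 were higher and 2, Atf4 (by 1 set) and Ddit3 (by 49 sets), lower. Ero1b was on the higher side in all 9 tables. For the 25 genes with counts, the GHR+/+ against GHR-/- table put 24 on the higher side and 1 on the lower.

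**Figure D5:**
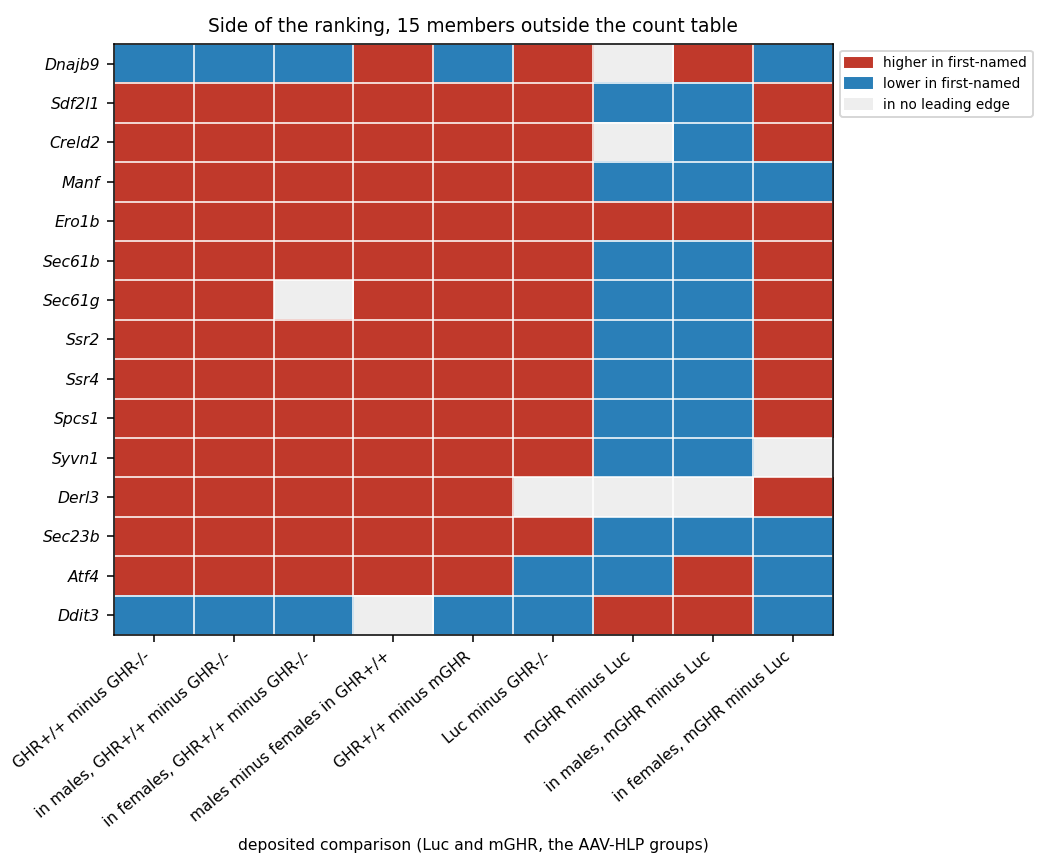
Side of the deposited ranking (colour) for each of the 15 genes without counts (rows) in the 9 deposited comparisons (columns), from the leading edges of the sets that hold the gene. In the GHR+/+ columns 12 to 14 of the 15 are on the higher side, and the columns that compare the 2 vectors are mixed.

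The deposited set scores pool many genes besides these. The normalized enrichment score (NES) of the Hallmark unfolded protein response set was 2.28 for GHR+/+ against GHR-/- mice (adjusted p-value 9.13e-07), with 9 of the 40 genes in its leading edge. It was 2.07 in males and 1.87 in females, 1.82 for males against females in GHR+/+ mice, and 2.00 for GHR+/+ against AAV-HLP-mGHR mice. In the tables that include AAV-HLP-Luc male 005, it was 2.02 for AAV-HLP-Luc against GHR-/- mice (adjusted p-value 0.000286) and -1.32 when AAV-HLP-mGHR was set against AAV-HLP-Luc (adjusted p-value 0.292). The GO set of protein disulfide isomerase activity scored 2.04 for GHR+/+ against GHR-/- mice (adjusted p-value 0.00787), with 5 of the 40 genes in its leading edge, and 1.98 in females (adjusted p-value 0.0155). Other GO sets on the same theme were split for GHR+/+ against GHR-/- mice. ER to Golgi vesicle transport (NES 2.00, adjusted p-value 0.000314) and COPII-coated vesicles (1.80, 0.0344) passed. So did ER-associated degradation (1.65, 0.0433) and the oligosaccharyltransferase complex (1.85, 0.0499). The ER chaperone complex (adjusted p-value 0.0555), the ER unfolded protein response (0.0692) and protein folding in the ER (0.233) did not pass. Nor did the signal peptidase complex (0.0865), ubiquitin-dependent degradation (0.129) or cotranslational targeting to the membrane (0.29). Hallmark protein secretion did not pass either (adjusted p-value 0.133), nor in females did the GO response to ER stress (adjusted p-value 0.602), which passed with the sexes pooled (adjusted p-value 0.0208). Between the 2 vectors in males, again with mouse 005, the oligosaccharyltransferase complex scored -2.11 (adjusted p-value 0.00834) and cotranslational targeting to the membrane -1.86 (adjusted p-value 0.0399). The GO set of ER to Golgi vesicle transport scored 2.21 for males against females in GHR+/+ mice (adjusted p-value 2.09e-06). Sets that share genes are not independent of each other, and the comparisons share mice.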

How the data were processed

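Each of the 24 mice gave 1 stranded poly(A) library, and the mice, each with its own animal number, are the replicates. The study's sequencing provider cleaned reads with fastp, mapped them with Hisat2 to mm39 and counted them with featureCounts 1.5.0-p3. Each gene's read count and FPKM, made by that provider and published by the authors, were read from supplementary tables held in part, 1999 and 1301 of 56748 genes. All columns of values per mouse were used (0 were not). The deposited enrichment tables hold, for 9 comparisons, each set's normalized enrichment score, p-value, adjusted p-value, size and leading edge, as the authors computed them; the authors' own fold changes and p-values per gene were not used.

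Size factors by the median of ratios scaled the counts, which were tested, 2-sided, with limma 3.58.1 (voom) in R 4.3.3, Benjamini-Hochberg adjusted over all genes in hand, threshold 0.05, using the libraries of the groups compared and no sex term, after the paper's pooled design. A moderated test was used because the counts were not among the deposited files. Effects in each sex came from a fit with a sex by group term. A pseudocount of 1 served the heat map and the medians per mouse relative to the GHR-/- mean. A gene stood on the higher side of a deposited table if every set with it in the leading edge scored above 0, and on the lower side if every one scored below 0. For either side 1 set was enough. Figures used Python 3.11.15 and matplotlib 3.10.9. Depth over the genes in hand was 26453904 to 38194053 counts per mouse, and their lowest mean count was 1123, so rare transcripts were not among the genes in hand.

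The 40 genes, the pathway and marker lists and the tests were chosen with earlier results of these data known. Genes with counts that passed in at least 1 of the 10 fits, or whose groups did not overlap, were to be given with their values, and the others by range and count. ER stress element II and the fits without named mice beyond the leave-one-out series were chosen after seeing the data. Alternatives were library totals, limma-trend, a filter of 10 counts in every mouse, a fit of all libraries together, sex as a covariate, omission of each mouse, and GO biological process sets alone.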

Additional observations from a re-analysis of the deposited data

Results flagged for a closer look

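For the 25 genes with counts and the 4 groups of 6 mice, 100 sets of 6 values were searched for a mouse far from the other 5. Chance marks about 1 in 20 such sets, and 27 were marked, 20 of them in AAV-HLP-Luc male 005. Its normalized counts were 51780 for Hspa5, 47811 for Hsp90b1, 60263 for Calr, 17814 for Canx, 7783 for Dnajb11, 17494 for Dnajc3 and 13092 for Hyou1 among the chaperones. Among the disulfide enzymes they were 32400 for Pdia3, 18316 for Pdia4, 19220 for Pdia6 and 123560 for P4hb. Among the translocation genes they were 17008 for Sec61a1, 8749 for Ssr1, 22109 for Ssr3 and 6578 for Spcs2. For Sel1l, Derl1, Edem1, Sec24d and Xbp1 they were 8574, 7348, 11688, 4538 and 8485.

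The other 7 came from 4 mice. AAV-HLP-mGHR male 008 had 34556 normalized counts of Hspa5, against 15291 to 16577 in the other 5 mice of its group, and 6648 of Hyou1, against 2292 to 3677. AAV-HLP-mGHR female 024 had 12029 of Pdia6, against 5492 to 7089, and 2846 of Spcs2, against 1897 to 2195. GHR+/+ male 101 had 9635 of Pdia4, against 5947 to 7125, and 7463 of Sel1l, against 5203 to 6000. GHR-/- female 132 had 15701 of Pdia3, against 11164 to 12543.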

How the results depend on the processing

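No value changed sign on a call under any alternative tried. The number of the 25 genes called in GHR+/+ against GHR-/- mice, 15, stayed between 10 and 17 when each mouse was left out, and Xbp1, Pdia6, Calr, Canx, Hsp90b1, Pdia3 and Derl2 were called in all 18 alternative fits, 12 of them without 1 mouse. For GHR+/+ against AAV-HLP-mGHR mice, 4 were called, 1 to 8 when a mouse was left out (Herpud1 alone in the lowest), and 9 in the fit over all libraries but AAV-HLP-Luc male 005 (Hsp90b1, Herpud1, Pdia3, Pdia6, Sec61a1, Xbp1, Derl1, Derl2 and Spcs2), where 25% of all genes were called. That fit called 1 gene, Sel1l, between the 2 vectors, where every fit that left out 1 mouse called 0, and 1, Xbp1, for the interaction of sex with GHR+/+ against GHR-/- (2.1% of all genes). limma-trend called 2 for that interaction, Xbp1 (0.84) and Sec24d (0.59), against 2.35% of all genes, and the fits without 1 mouse 0. For males against females in GHR+/+ mice, 8 became 5 with library totals, 1 (Sec24d) in the fit over all 24 libraries (9.85% of all genes) and 0 to 5 without 1 mouse. In males 20 genes became 13 to 20 without 1 mouse, the lowest without GHR-/- male 113, and in females 0 became 0 to 1, the 1 being Herpud1 (-0.34) without GHR-/- male 114 (5.9% of all genes). The causes were not tested. Where no share of all genes stands beside a count here, a change in calls over all genes cannot be told apart. Library totals gave medians of 0.35, -0.04, 0.19 and 0.23 for the 4 pooled comparisons, in the order of the report. Of the calls on single genes, 403 of 516 held when a mouse was left out, 40 of 47 with library totals, 13 of 27 in the fit over all 24 libraries (24 of 27 in that fit without AAV-HLP-Luc male 005), and all 47 with limma-trend and with the count filter. Keeping GO biological process sets only left the number of genes on the higher side within 1.5 times in each of the 9 tables.

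No paired analysis was possible because each mouse has its own animal number and the groups share none. The counts in hand cover abundant genes only, so nothing is known here of the size of change in the other 15 genes, and the adjustment is over the genes in hand. With 3 mice per sex and group, the sex comparisons rest on few animals.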
